A study of Homo sapiens with 18 samples.

Results

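VASH1, VASH2, SVBP and TTL are the core genes of the tubulin tyrosination cycle. They were 4 of the 58870 genes in the table of estimated counts, and 4 of 4 passed the filter on low counts that left 17743 genes for testing. VASH1 was selected on its measured fall under the NRF1 guide, as 1 of the 10 largest falls among expressed genes, so its guide effect is given as a description with no test. VASH2, SVBP and TTL were taken for their function beside it.

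The C-terminal tyrosine of alpha-tubulin is removed and put back in a cycle that marks stable and dynamic microtubules. The vasohibins VASH1 and VASH2 are carboxypeptidases that remove the tyrosine, though not the only ones, and each works in a complex with the small vasohibin-binding protein SVBP. TTL, tubulin tyrosine ligase, adds the tyrosine back to soluble tubulin. VASH1 was first known as an inhibitor of blood vessel growth made by endothelial cells, and the cycle is best studied in neurons and muscle.

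HEK293T, a human embryonic kidney cell line, was transfected with plasmids that carry a base editor and a guide RNA, and polyadenylated RNA was sequenced in 18 libraries. In a base editor a deaminase is fused to a Cas9 nickase, which the guide brings to the bases to be changed. The groups, of 3 libraries each, were SaABE (ABE8e, an adenine deaminase, on nSaCas9), SpABE (ABE8e on nSpCas9) and SpCBE (evoCDA1, a cytosine deaminase, on nSpCas9), each with a guide to the splice sites of exon 7 of NRF1 or with an intergenic guide. Cells of all 6 groups went through puromycin for 48 hours and were lysed 72 hours after transfection, so the intergenic controls also carry an active editor, and the cells are a transfected and selected pool. The paper describes 3 independent base editor constructs, aimed at the splice donor or acceptor of the exon. In differences between editors, the editor therefore cannot be told apart from the guide sequence or target site. NRF1 is a transcription factor that binds a GC-rich palindrome in many promoters, and the comparison asks what skipping of its exon 7 does to RNA levels.

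Libraries held 28101094 to 40687447 estimated counts. The NRF1 gene itself averaged 39.7 ± 2.39 CPM (counts brought to a common library total with TMM scaling) with NRF1 guides and 28.5 ± 3.19 CPM with intergenic guides (SD, n = 9 each). These counts do not show exon skipping, and a gene-level count cannot check the labels on this point. The identity markers of the cell line (VIM, NEFL, NEFM, PAX2, KRT8 and KRT18) summed to 836 to 1010 CPM in every library. Of these 6 markers NEFL (-0.36, adjusted p = 6.1e-11) and KRT8 (-0.15, adjusted p = 0.00325) fell with the NRF1 guide, and with SaABE the sum was 836 to 857 CPM in NRF1-guide libraries, against 868 to 900.4 CPM in intergenic-guide libraries. The 8 endothelial markers PECAM1, CDH5, KDR, VWF, TEK, TIE1, ERG and EMCN summed to 0.545 to 1.67 CPM. Of the 2 that could be tested 0 passed in edgeR (0 at an unadjusted p under 0.05, and 0 in DESeq2), and VASH1 was therefore measured in cells in which the defining endothelial genes were near 0. Of the blood, fibroblast and neuron markers that could be tested (2, 4 and 6), 1 blood marker rose and 1 fibroblast and 2 neuron markers fell with the NRF1 guide, at sizes below a call. Among all tested genes 20.6% rose and 18.8% fell at an adjusted p under 0.05. No change of cell identity is read from such small lists, those of the cell line included.

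The start of VASH1 is shown first because it holds the letters that NRF1 binds. The promoter windows are from RefSeq on GRCh38.p14, which matched 4 of 4 genes, and run from 250 bases before to 50 bases after the annotated start. The motif was searched on both strands as CGCATGCG or CGCACGCG, 8 letters, and again with a G before and a C after. Capitals mark the 8-letter motif. The first line holds the 250 bases before the VASH1 start, chr14:76761218-76761467 on the plus strand. The next lines hold 30 bases around the motif at VASH1, chr14:76761445-76761474 on the plus strand, and at SVBP, chr1:42817376-42817405 on the minus strand.
VASH1 upstream: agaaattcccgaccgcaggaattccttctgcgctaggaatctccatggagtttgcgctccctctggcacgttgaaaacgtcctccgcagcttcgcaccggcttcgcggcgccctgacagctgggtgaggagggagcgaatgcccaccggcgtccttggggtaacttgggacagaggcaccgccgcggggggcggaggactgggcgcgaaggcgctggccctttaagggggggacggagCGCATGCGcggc
VASH1 start: gggggacggagCGCATGCGcggcgcgggcc
SVBP start: catcctctctgCGCACGCGcggccgctcct

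In VASH1 the motif lay 12 to 5 bases before the start, and in SVBP it lay 3 to 10 bases after the start. Both copies also had the flanking G and C. No copy of these letters was found in the windows of VASH2 and TTL, although the TTL window had the highest GC content, 82%, against 68% for VASH1, 63% for VASH2 and 59% for SVBP. Of all 35116 promoters in the table, 4.65% held the 8 letters and 2.77% held them with the flanks. Among promoters of tested genes the shares were 7.32% and 4.37%, and among promoters of genes called lower with the NRF1 guide they were 22.8% and 17.3%. VASH1 and SVBP thus each hold a different form of the motif, at different positions from the start. The genes called lower include VASH1, which was chosen on that same comparison. A match of letters is a description of sequence, and binding at these starts was not measured here.

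VASH1 (ENSG00000071246.11, hg38 chromosome 14, 76761468 to 76783015, plus strand, GENCODE 44) encodes the first of the vasohibins to be described. With SaABE it had 11.5, 10.6 and 10.8 CPM in the NRF1-guide libraries, against 39.9, 40.8 and 40.6 CPM in the intergenic-guide libraries. With SpABE it had 8.21, 10.1 and 10.5 CPM in NRF1-guide libraries, against 34.7, 35.2 and 36.4 CPM in intergenic-guide libraries. With SpCBE it had 10.4, 10.1 and 10.4 CPM in NRF1-guide libraries, against 31.4, 30.7 and 32.9 CPM in intergenic-guide libraries. All 9 NRF1-guide libraries lay far below all 9 intergenic-guide libraries, with a gap between 11.5 CPM, the highest NRF1-guide value, and 30.7 CPM, the lowest intergenic-guide value. In bulk RNA, fewer cells that express a gene and less RNA per cell cannot be told apart.

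Over all 3 editors VASH1 averaged 10.3 ± 0.892 CPM with NRF1 guides and 35.8 ± 3.88 CPM with intergenic guides (SD, n = 9 each). Its log2 fold change was -1.79 (SE 0.044), or 3.46-fold lower. It ranked 20 from the largest fall among the 17743 tested genes, and 5 among the 11400 with a mean of at least 5 CPM. The log2 fold change was -1.88 (SE 0.063) with SaABE, -1.88 (SE 0.062) with SpABE and -1.62 (SE 0.061) with SpCBE, which correspond to 3.68-fold, 3.68-fold and 3.07-fold lower levels. A gene was called when its adjusted p was under 0.05 and its absolute log2 fold change over 0.5. Over all 3 editors 4.37% of tested genes were called lower and 1.13% were called higher. Nothing is read from those shares for VASH1, since that comparison chose it. The median log2 fold change of all tested genes was 0.01.

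**Figure D1:**
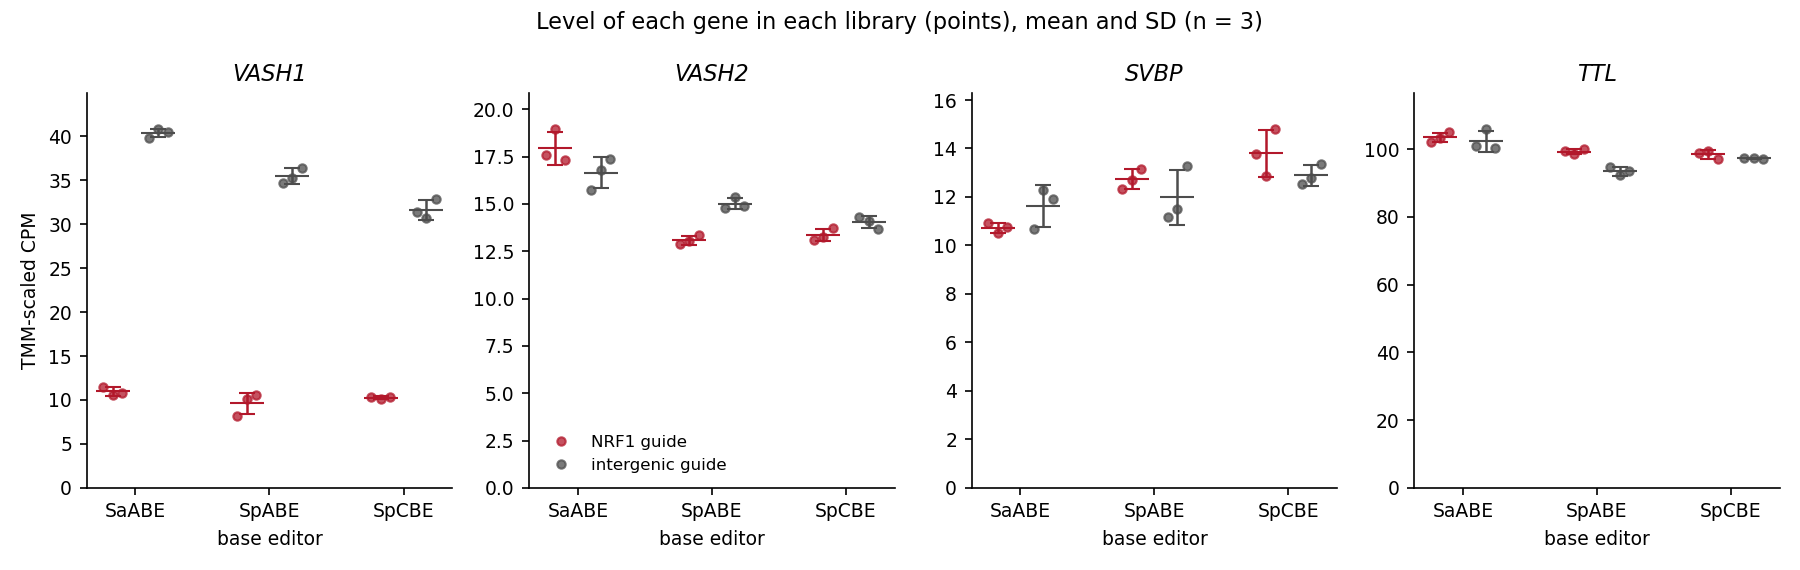
TMM-scaled CPM (y axes, each from 0) of VASH1, VASH2, SVBP and TTL in each of the 18 libraries, by base editor, with NRF1-guide libraries in red to the left of intergenic-guide libraries in grey; points are libraries and bars give the mean and SD (n = 3). VASH1 lay between 8.21 and 11.5 CPM in all NRF1-guide libraries, below every intergenic-guide library, whereas the ranges of the other genes over the 9 libraries of each guide overlapped.

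Whether the editors differed in the VASH1 effect was tested as a contrast of guide effects, which the choice of VASH1 did not use. The SaABE effect minus the SpABE effect was -0.00 (SE 0.088, 95% confidence interval -0.18 to 0.18, adjusted p = 1.00). The effect was larger in size by 0.26 with SaABE than with SpCBE (SaABE minus SpCBE -0.26, SE 0.088, interval -0.44 to -0.08), and this did not pass after adjustment (adjusted p = 0.100). SpABE minus SpCBE gave -0.26 (SE 0.087, interval -0.44 to -0.08, adjusted p = 0.0657). The call on these differences hung on single libraries. Without SpABE NRF1-guide replicate 3 the SpABE minus SpCBE value was -0.33 (adjusted p = 0.0251), and without SpABE NRF1-guide replicate 1 the SaABE minus SpCBE value was -0.26 (adjusted p = 0.0389). For scale, 11.7% of tested genes passed for SaABE minus SpABE, 4.09% for SaABE minus SpCBE and 8.96% for SpABE minus SpCBE.

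The levels of VASH1 in the intergenic controls, which its choice did not use as a contrast, also differed between editors. The SaABE controls averaged 40.4 ± 0.491 CPM, the SpABE controls 35.5 ± 0.904 CPM and the SpCBE controls 31.7 ± 1.11 CPM (SD, n = 3 each), and no libraries of these 3 groups overlapped. SaABE exceeded SpABE by 0.19 (SE 0.051, adjusted p = 0.00456), SaABE exceeded SpCBE by 0.35 (SE 0.051, adjusted p = 5.65e-06) and SpABE exceeded SpCBE by 0.17 (SE 0.051, adjusted p = 0.0139), all on the log2 scale. Without SpCBE intergenic replicate 2 the last of these no longer passed (0.15, adjusted p = 0.0578). Differences of this kind were common, as 38.4%, 40.6% and 35.5% of tested genes passed in the 3 comparisons in this order. The NRF1 gene had the same order in these controls, with 31.5 to 33.1 CPM for SaABE, 26.7 to 28.8 CPM for SpABE and 24.4 to 26.0 CPM for SpCBE, and the part of this in the VASH1 differences was not tested. With NRF1 guides the VASH1 means were 11.0 ± 0.491 CPM for SaABE, 9.62 ± 1.23 CPM for SpABE and 10.3 ± 0.163 CPM for SpCBE, and the SpABE range spanned that of SpCBE.

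VASH2 (ENSG00000143494.15, chromosome 1, 212950520 to 212992037, plus strand) is the second vasohibin and carries out the same reaction as VASH1. With SaABE VASH2 had 17.6, 18.9 and 17.3 CPM in NRF1-guide libraries, against 15.8, 16.8 and 17.4 CPM in intergenic-guide libraries. With SpABE VASH2 had 12.9, 13.0 and 13.4 CPM in NRF1-guide libraries, against 14.8, 15.4 and 14.9 CPM in intergenic-guide libraries. With SpCBE VASH2 had 13.1, 13.3 and 13.7 CPM in NRF1-guide libraries, against 14.3, 14.1 and 13.7 CPM in intergenic-guide libraries. The NRF1-guide libraries thus lay mostly above the controls with SaABE, wholly below them with SpABE, and overlapped them with SpCBE.

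Over all 3 editors VASH2 averaged 14.8 ± 2.41 CPM with NRF1 guides and 15.2 ± 1.23 CPM with intergenic guides (SD, n = 9 each), and the log2 fold change of -0.05 did not pass the test (SE 0.041, interval -0.14 to 0.03, adjusted p = 0.322). VASH2 fell with SpABE by 0.20 on the log2 scale (SE 0.055, adjusted p = 0.00654), below the size needed for a call. It did not pass with SaABE (log2 fold change 0.11, SE 0.054, adjusted p = 0.147) or with SpCBE (-0.07, SE 0.055, adjusted p = 0.400). In these editors 32.6% (SpABE), 32.4% (SaABE) and 23.1% (SpCBE) of tested genes passed in either direction. The SaABE and SpABE effects on VASH2 differed from each other by 0.30 (SE 0.077, adjusted p = 0.0115), while SaABE minus SpCBE (0.18, SE 0.077, adjusted p = 0.217) and SpABE minus SpCBE (-0.13, SE 0.078, adjusted p = 0.367) did not pass. In the same order 11.7%, 4.09% and 8.96% of all tested genes passed.

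In the intergenic controls VASH2 was highest with SaABE, at 16.6 ± 0.815 CPM, against 15.0 ± 0.301 CPM with SpABE and 14.0 ± 0.324 CPM with SpCBE (SD, n = 3 each). SaABE exceeded SpCBE by 0.25 on the log2 scale (SE 0.055, adjusted p = 0.00083). It exceeded SpABE by 0.15 (SE 0.054, adjusted p = 0.0339), a call lost under DESeq2 (adjusted p = 0.103), with every gene of at least 1 count kept (0.246), in a fit of the 9 controls alone (0.0785), and without SaABE intergenic replicate 2 (0.0805) or 3 (0.153) or SpABE intergenic replicate 1 (0.0921) or 3 (0.0875). The 3 SpABE controls all lay above the 3 SpCBE controls, but this difference did not pass the test (0.10, SE 0.054, interval -0.01 to 0.21, adjusted p = 0.172).

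SVBP (ENSG00000177868.12, chromosome 1, 42807052 to 42817397, minus strand) encodes the partner that the vasohibins need to be soluble and active. With SaABE SVBP had 10.9, 10.5 and 10.8 CPM in NRF1-guide libraries, against 10.7, 12.3 and 11.9 CPM in intergenic-guide libraries. With SpABE SVBP had 12.3, 12.7 and 13.2 CPM in NRF1-guide libraries, against 11.2, 11.5 and 13.3 CPM in intergenic-guide libraries. With SpCBE SVBP had 13.8, 12.8 and 14.8 CPM in NRF1-guide libraries, against 12.5, 12.8 and 13.4 CPM in intergenic-guide libraries. The guides overlapped within every editor. Over all 3 editors SVBP averaged 12.4 ± 1.45 CPM with NRF1 guides and 12.2 ± 0.931 CPM with intergenic guides (SD, n = 9 each), with a log2 fold change of 0.03 (SE 0.046, interval -0.06 to 0.13, adjusted p = 0.644). The interval excludes a fall of the size seen for VASH1. No editor passed alone, with values of -0.11 (SE 0.076, adjusted p = 0.273) for SaABE, 0.09 (SE 0.071, adjusted p = 0.366) for SpABE and 0.10 (SE 0.070, adjusted p = 0.344) for SpCBE. The SaABE effect minus the SpABE effect was -0.20 (adjusted p = 0.227) and minus the SpCBE effect -0.21 (adjusted p = 0.271). The 3 differences between controls did not pass either, with adjusted p from 0.108 to 0.691.

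TTL (ENSG00000114999.8, chromosome 2, 112482156 to 112541739, plus strand) encodes the ligase that runs the cycle in the other direction. With SaABE TTL had 102.2, 103.2 and 105.0 CPM in NRF1-guide libraries, against 100.8, 105.8 and 100.2 CPM in intergenic-guide libraries. With SpABE TTL had 99.3, 98.5 and 99.9 CPM in NRF1-guide libraries, against 94.6, 92.2 and 93.4 CPM in intergenic-guide libraries. With SpCBE TTL had 98.8, 99.4 and 97.0 CPM in NRF1-guide libraries, against 97.4, 97.2 and 97.0 CPM in intergenic-guide libraries. The libraries of the 2 guides were apart with SpABE and overlapped with SaABE and SpCBE.

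TTL averaged 100.4 ± 2.55 CPM with NRF1 guides and 97.6 ± 4.20 CPM with intergenic guides (SD, n = 9 each), with a log2 fold change of 0.04 (SE 0.018, interval 0.00 to 0.08, adjusted p = 0.0792). This value sits at the edge of the test, since it passed under DESeq2 (0.05, adjusted p = 0.0339), with RLE scaling (0.05, adjusted p = 0.0453) and without SaABE intergenic replicate 2 (0.05, adjusted p = 0.0304). With SpABE alone TTL rose by 0.09 (SE 0.027, adjusted p = 0.0142). That call was lost without SpABE NRF1-guide replicate 3 (adjusted p = 0.0542) or SpABE intergenic replicate 2 (adjusted p = 0.0652), and with every gene of at least 1 count kept (adjusted p = 0.0845). TTL was at 0.02 with SaABE (adjusted p = 0.699) and 0.02 with SpCBE (adjusted p = 0.716). No difference between editors' effects passed, with adjusted p from 0.263 to 0.999.

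In the controls TTL was higher with SaABE than with SpABE by 0.13 on the log2 scale (SE 0.027, adjusted p = 0.000466). SaABE minus SpCBE was 0.07 (SE 0.027, adjusted p = 0.0358), which did not hold without SaABE intergenic replicate 2 (adjusted p = 0.198) or without any of the 3 SpCBE intergenic replicates (adjusted p = 0.0535, 0.0700 and 0.0665). It was also lost with every gene of at least 1 count kept (adjusted p = 0.244) and in a fit of the 9 controls alone (adjusted p = 0.0990). SpABE minus SpCBE was -0.06 (adjusted p = 0.0991).

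**Figure D2:**
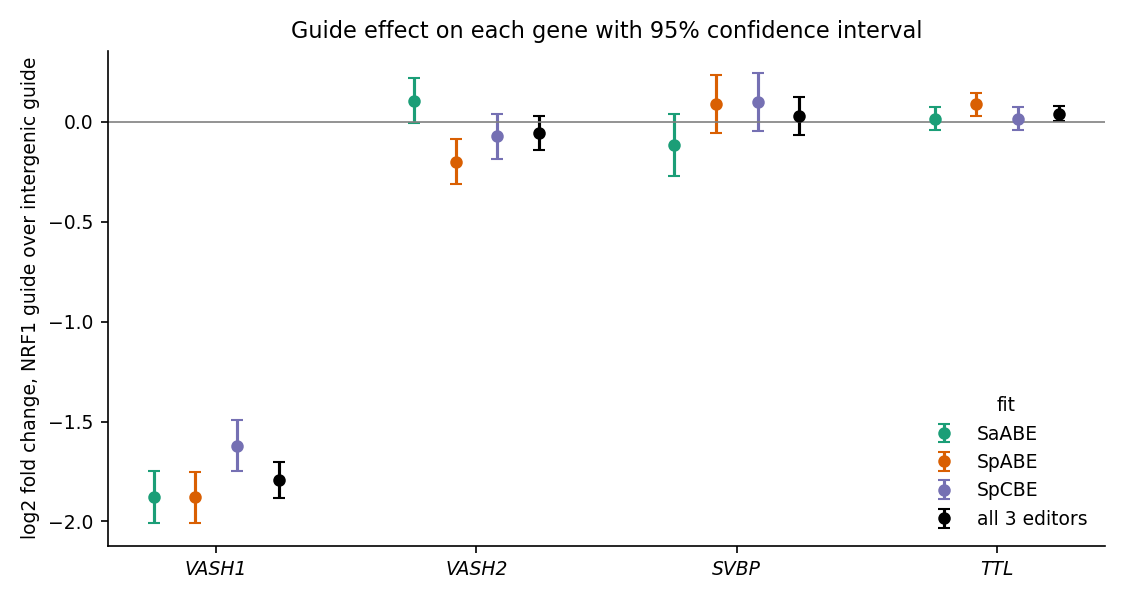
Log2 fold change of the NRF1 guide over the intergenic guide (y axis) for VASH1, VASH2, SVBP and TTL in SaABE, SpABE and SpCBE and over all 3 editors; points are fitted values and bars their 95% confidence intervals, and the values of VASH1 are a description because they chose the gene. VASH1 lies between -1.88 and -1.62, and the other 3 genes lie between -0.20 and 0.11.

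Set against each other, the members can be compared only per length, here as CPM per kb of exon in GENCODE 44 (7223 bases for VASH1, 9086 for VASH2, 1353 for SVBP and 15730 for TTL). This scale treats all annotated exon bases as transcribed, so a gene with a long rarely used exon is set too low. VASH1 stood at 1.43 ± 0.123 CPM per kb with NRF1 guides and 4.96 ± 0.537 CPM per kb with intergenic guides (SD, n = 9 each). VASH2 stood at 1.63 ± 0.265 and 1.68 ± 0.135 CPM per kb with NRF1 and intergenic guides. SVBP was at 9.18 ± 1.08 and 8.99 ± 0.688 CPM per kb, and TTL at 6.38 ± 0.162 and 6.21 ± 0.267 CPM per kb, in the same order of guides.

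VASH1 was therefore the main vasohibin transcript of the control cells and about level with VASH2 in the NRF1-guide cells. It made up 46.9% ± 3.15 of the summed VASH1 and VASH2 level per kb with NRF1 guides, with a range of 41.3% to 49.9%, and 74.7% ± 0.948 with intergenic guides, with a range of 73.3% to 76.1% (SD, n = 9 each). The summed vasohibin level was 0.478 ± 0.046 times that of TTL with NRF1 guides and 1.07 ± 0.088 times with intergenic guides. Against SVBP it was 0.340 ± 0.077 times with NRF1 guides and 0.744 ± 0.112 times with intergenic guides. These ratios contain the VASH1 value that chose the gene, so they are given without a test, and RNA ratios do not give enzyme amounts or tubulin modification, which were not measured in these libraries. The summed vasohibin level also leaves out KIAA0895L and KIAA0895, other tubulin carboxypeptidases described below.

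**Figure D3:**
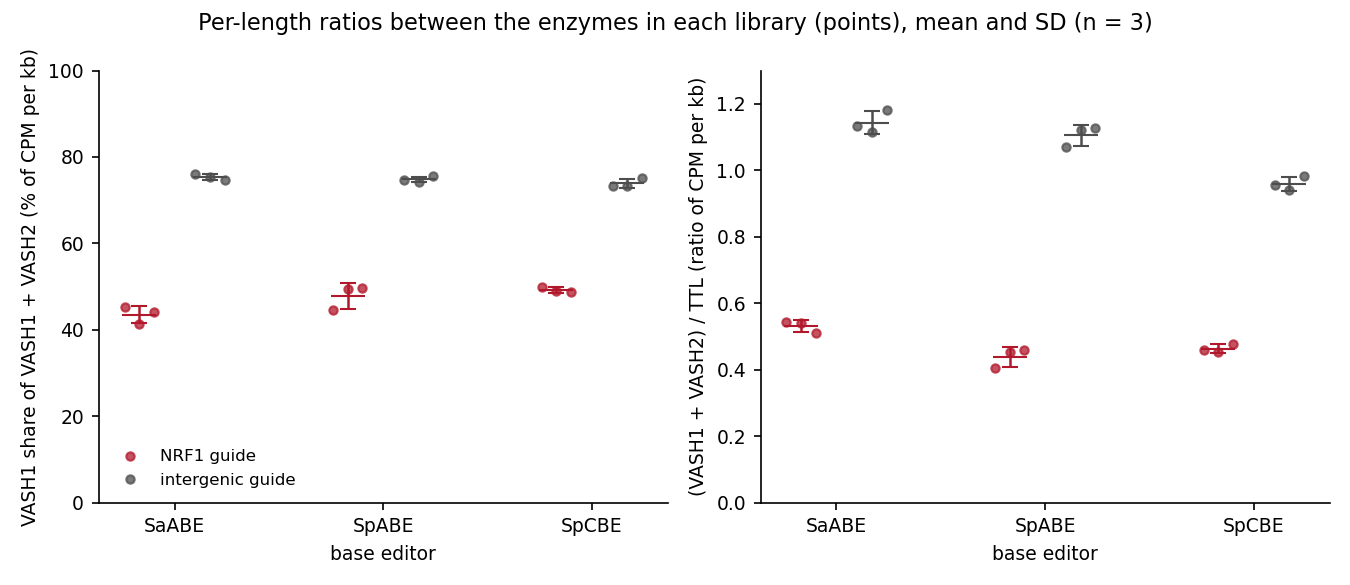
Ratios of CPM per kb in each library by base editor, with NRF1-guide libraries in red to the left of intergenic-guide libraries in grey (points are libraries, bars the mean and SD, n = 3). Left, VASH1 as a percentage of VASH1 plus VASH2, which ranged from 41.3% to 49.9% with NRF1 guides and from 73.3% to 76.1% with intergenic guides; right, VASH1 plus VASH2 over TTL, which averaged 0.478 with NRF1 guides and 1.07 with intergenic guides.

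The genes that overlap or neighbour the members were read next, because a stranded kit was used but the strand setting of the counting is not given, and reads of antisense or overlapping genes could be mixed. The estimated counts of VASH1 included fractional values, such as 366.41 in a SaABE NRF1-guide library. VASH1-AS1, an antisense RNA that overlaps the 3′ end of VASH1, stood at 7.38 ± 1.14 CPM with NRF1 guides and 6.73 ± 0.516 CPM with intergenic guides (log2 fold change 0.12, SE 0.053, adjusted p = 0.0714) and did not pass the test over all 3 editors. By editor VASH1-AS1 rose with SaABE (0.22, adjusted p = 0.0433) and was at 0.20 with SpABE (adjusted p = 0.0609) and -0.06 with SpCBE (adjusted p = 0.678). ENSG00000258610, a long noncoding RNA on the strand of VASH1 and inside its bounds, was at 0.162 ± 0.114 CPM with NRF1 guides and 0.569 ± 0.414 CPM with intergenic guides (-1.79, SE 0.563, adjusted p = 0.00905). Its reads cannot be told apart from those of VASH1 here. ANGEL1, the next tested gene 2994 bases beyond VASH1, was at 50.6 ± 4.32 CPM with NRF1 guides and 50.1 ± 1.40 CPM with intergenic guides (0.01, adjusted p = 0.785), and ESRRB, 259631 bases before it, was at 0.18 (adjusted p = 0.0256).

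VASH2 has a paralogous neighbourhood, with ANGEL2 on the opposite strand 145 bases beyond its annotated end. ANGEL2 fell to 47.8 ± 1.96 CPM with NRF1 guides, against 62.7 ± 4.63 CPM with intergenic guides (SD, n = 9 each, log2 fold change -0.39, SE 0.029, adjusted p = 7.71e-11). It fell with SaABE (-0.31), SpABE (-0.52) and SpCBE (-0.34), all past an adjusted p of 0.05, while VASH2 itself passed only with SpABE. At these 2 paralogous pairs the lower gene was VASH1 in the first and ANGEL2 in the second, and the ANGEL genes were reached through the rule for neighbours and not for their values. FLVCR1 on the other side of VASH2 was at 0.08 (adjusted p = 0.0412).

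SVBP is overlapped by TMEM269 (-0.13, adjusted p = 0.443) and, head to head at its start, by ERMAP, which begins at 42817122 on the plus strand. ERMAP was at 4.02 ± 0.478 CPM with NRF1 guides and 4.28 ± 0.443 CPM with intergenic guides (-0.09, adjusted p = 0.298). TMEM269 ends at 42816619, short of the SVBP start, so of these overlapping genes ERMAP alone spans the SVBP motif. The nearest tested genes outside SVBP were ENSG00000283580, which fell by 0.38 (adjusted p = 0.0019), and ZNF691-DT at 0.13 (adjusted p = 0.202). TTL is followed after 176 bases by POLR1B, a subunit of RNA polymerase I, which rose by 0.13 (100.8 ± 5.19 CPM with NRF1 guides and 92.3 ± 2.67 CPM with intergenic guides, adjusted p = 3.3e-05). RGPD8 on the other side was at -0.19 (adjusted p = 0.00216), and as a member of a family of near-identical copies its count is uncertain.

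The wider set of tubulin genes was counted from lists of 68 genes, of which 54 were tested. Over all 3 editors 11 of the 54 rose and 16 fell at an adjusted p under 0.05, beside 20.6% of all tested genes that rose and 18.8% that fell. In edgeR 0 of the 54 were called higher (0 at an unadjusted p under 0.05 with the same size of change, and 0 in DESeq2) and 4 were called lower, beside 1.13% of all tested genes called higher and 4.37% called lower. The median log2 fold change of the 54 was -0.01, against 0.01 for all tested genes. By editor 1 of the 54 was called higher with SaABE (TTLL13P, at 1.17 and under 1 CPM) and 2 with SpABE (TUBA8 at 0.74 and TUBB3 at 0.55), and 3 were called lower with each editor. Of all 17743 tested genes, 220 (SaABE), 303 (SpABE) and 149 (SpCBE) were called higher. In the same order of editors 854, 834 and 640 were called lower. The 2 other tubulin carboxypeptidases of the lists showed small changes. KIAA0895L (MATCAP1) fell by 0.13 (13.9 ± 0.85 CPM with NRF1 guides and 15.2 ± 0.98 CPM with intergenic guides, adjusted p = 0.0189). KIAA0895 (MATCAP2) was at -0.02 (47.7 ± 9.89 CPM with NRF1 guides and 47.8 ± 6.16 CPM with intergenic guides, adjusted p = 0.739). That value joined opposite signs, since KIAA0895 rose with SaABE (0.13, adjusted p = 0.0447) and was at -0.10 with SpABE (adjusted p = 0.114) and -0.08 with SpCBE (adjusted p = 0.259).

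Among enzymes that modify tubulin tails in other ways, 2 of 9 tested ligase-like TTLL genes rose (22.2%) and 1 fell (11.1%), beside 20.6% and 18.8% of all tested genes. TTLL11, a polyglutamylase, rose by 0.20 (adjusted p = 0.00262), TTLL5, also a polyglutamylase, rose by 0.10 (adjusted p = 0.0106), and TTLL1, the catalytic subunit of a polyglutamylase complex, fell by 0.26 (adjusted p = 0.00194). Of 3 tested cytosolic carboxypeptidases, which trim glutamates, AGBL5 rose by 0.10 (adjusted p = 0.00126). In edgeR 0 of the 3 genes of tubulin acetylation passed the test (0 at an unadjusted p under 0.05, and 0 in DESeq2), with the acetyltransferase ATAT1 at -0.00 (adjusted p = 0.978), the deacetylase HDAC6 at 0.05 (adjusted p = 0.237) and the deacetylase SIRT2 at -0.02 (adjusted p = 0.634). The value of ATAT1 near 0 joined opposite signs, since it fell by 0.21 with SaABE (adjusted p = 0.009) and was at 0.13 with SpABE (adjusted p = 0.0723) and 0.05 with SpCBE (adjusted p = 0.616).

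Among the alpha-tubulins, TUBA1B fell by 0.28 (1453 ± 64.5 CPM with NRF1 guides and 1758 ± 98.0 CPM with intergenic guides, adjusted p = 5.88e-10). TUBA1C rose by 0.09 (adjusted p = 0.00084) and TUBA1A rose by 0.07 (adjusted p = 0.0166). With TUBA8 (0.30, adjusted p = 0.0497, 2.11 CPM with NRF1 guides) 3 of 5 tested alpha-tubulins rose and 1 fell. Leaving out each library gave 2 to 3 that rose. TUBA8 and TUBA1A passed only with SpABE (0.74 and 0.14). They were at 0.09 and 0.03 with SaABE and at 0.04 and 0.05 with SpCBE. Of 7 beta-tubulins 1 rose and 3 fell, beside 20.6% and 18.8% of all tested genes, and the 3 of smallest p were TUBB (-0.19, adjusted p = 3.54e-08), TUBB2B (-0.11, adjusted p = 0.000109) and TUBB4A (-0.15, adjusted p = 0.00112). The 1 that rose was TUBB3, the beta-tubulin typical of neurons (0.21, adjusted p = 0.0194), and its direction was not the same with every editor. TUBB3 rose with SaABE by 0.29 (adjusted p = 2.72e-05) and with SpABE by 0.55 (adjusted p = 5.1e-09) and fell with SpCBE by 0.20 (adjusted p = 0.00394). The alpha- and beta-tubulin genes are near-identical copies in their coding parts, and how reads with several matches were treated is not given, so the split of counts among them is uncertain.

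The largest falls of the lists were outside the alpha- and beta-tubulins. TUBD1, delta-tubulin of centrioles, fell by 0.90 (12.1 ± 2.5 CPM with NRF1 guides and 22.6 ± 3.6 CPM with intergenic guides, SE 0.039, adjusted p = 1.69e-15). TUBG2, the second gamma-tubulin, fell by 0.84 (6.1 ± 1.6 CPM with NRF1 guides and 10.8 ± 2.0 CPM with intergenic guides, SE 0.093, adjusted p = 9.34e-08), and TUBG1, the main gamma-tubulin of microtubule nucleation, fell by 0.26 (adjusted p = 1.02e-08). TUBE1, epsilon-tubulin, rose by 0.15 (adjusted p = 0.0102). TUBG1 and TUBG2 are close paralogs, and their counts carry the same uncertainty as above.

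Among 14 tested proteins that bind microtubules at or near the alpha-tubulin tail, 7 fell and 1 rose over all 3 editors, beside 18.8% and 20.6% of all tested genes. Within single editors 4 (SaABE), 5 (SpABE) and 4 (SpCBE) of the 14 fell, beside 15.5%, 17.3% and 12% of all tested genes. CLIP4 fell by 0.82 (6.2 ± 0.87 CPM with NRF1 guides and 10.9 ± 1.5 CPM with intergenic guides, SE 0.056, adjusted p = 1.47e-11) and CLIP3 by 0.68 at under 1 CPM (SE 0.196, adjusted p = 0.00713). Both are relatives of CLIP1, a plus-end protein whose binding needs the terminal tyrosine and which fell by 0.08 (adjusted p = 0.00725). Of 7 tubulin folding cofactors 2 rose, ARL2 by 0.10 (adjusted p = 0.00761) and TBCE by 0.11 (adjusted p = 0.0177), and 0 fell in edgeR (1 at an unadjusted p under 0.05, and 0 in DESeq2). A promoter window was matched for 48 of the 54 tested list genes, some with several windows. Of their 72 windows 9.72% held the 8 letters, against 7.32% of the 16960 windows of all tested genes. Counted by gene, 6 of the 48 held them, beside 1159 of 11631 tested genes with a window. The genes with the letters were TUBB, TUBG1, TBCA, CLIP3, CLIP4 and DCTN1, of which 5 fell, DCTN1 by 0.06 (adjusted p = 0.0229), and TBCA was at -0.02 (adjusted p = 0.684). Of all 1159 tested genes with the letters in a window 47.3% fell, against 18.2% of the 10472 with a window and no such letters. These shares are descriptions, and whether the letters account for any fall was not tested. TUBD1 and TUBG2 fell without these letters in the window listed.

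**Figure D4:**
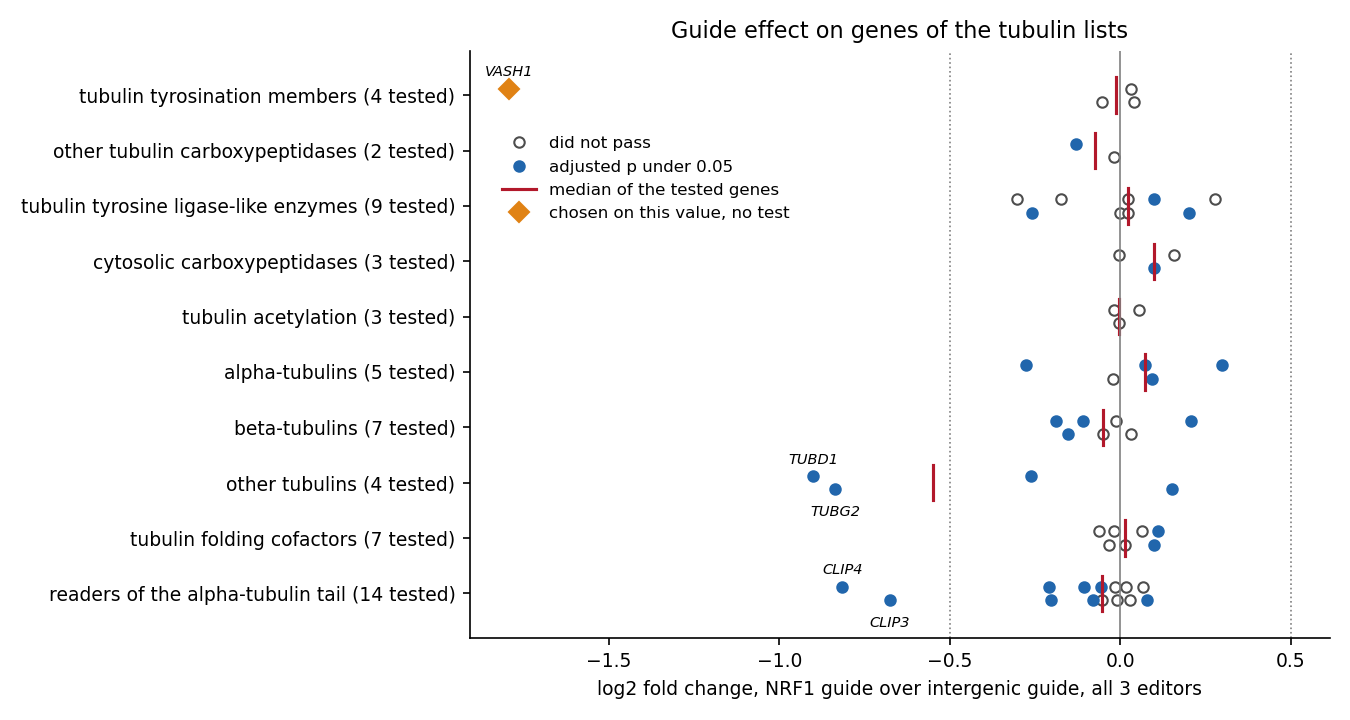
Log2 fold change of the NRF1 guide over the intergenic guide over all 3 editors (x axis) for each tested gene of the tubulin lists (rows); filled points passed an adjusted p of 0.05, open points did not, the orange diamond is VASH1, which was chosen on this value and has no test, red ticks are medians and dotted lines mark the size needed for a call. VASH1 at -1.79 stands beyond the 4 called list genes TUBD1, TUBG2, CLIP4 and CLIP3, whose values run from -0.90 to -0.68.

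The genes whose levels ran most like each member over the 18 libraries were found by Pearson's r of log2 CPM among 11180 genes with a mean of at least 5 CPM. These values are descriptions, since the libraries share editor and guide. For VASH1 they included VDAC3 (r = 0.993), ENTPD6 (0.993), ARPC5 (0.992) and ALG8 (0.990). These 4 were lower with NRF1 guides, for example ALG8, a glucosyltransferase of N-glycan assembly, at 37.1 ± 1.23 CPM with NRF1 guides and 82.7 ± 5.39 CPM with intergenic guides. Within the 9 NRF1-guide libraries r with VASH1 was -0.37 for ALG8 and 0.91 for VDAC3, and within the 9 intergenic-guide libraries it was 0.88 and 0.55 for the same genes.

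For VASH2 the genes most alike were STK10 (r = 0.961), JAZF1 (0.948) and PAX3 (0.943), for SVBP they were ZNF503-AS2 (0.902), MTM1 (0.889) and SAC3D1 (0.885), and for TTL they were MACO1 (0.925), XBP1 (0.924) and GNAZ (0.912). These genes moved little with the guide, with log2 fold changes from -0.08 for JAZF1 to 0.18 for XBP1. Likeness over both guides largely follows the guide effect of the gene compared, so no contrast with VASH1 is read from this. STK10 had an r with VASH2 of 0.986 within the NRF1-guide libraries and 0.925 within the intergenic-guide libraries.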

How the data were processed

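Polyadenylated RNA of 18 HEK293T libraries (6 groups of 3) was measured. Per the study's methods and the submitters' processing notes, the authors used Cutadapt 1.18 for trimming and STAR 2.7.0f for mapping, on hg38 with GENCODE 30. DESeq2 1.46.0 is also named. The counting program, with its strand setting and treatment of multiple matches, is not given in the sources used here. The authors deposited estimated counts per gene without normalization, of which 19.63% of nonzero values were not whole. These were rounded for tests, which had been planned for whole or rounded counts. Another 18 columns of the table were not used, and 58517 of 58870 identifiers were found in GENCODE 44.

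Genes were filtered with filterByExpr, scaled by TMM and tested with edgeR 4.0.16 (R 4.3.3) quasi-likelihood tests, with Benjamini-Hochberg adjustment over 17743 genes. The fit over all 3 editors had an additive editor term, and all other contrasts came from 6 group means over 18 libraries. Standard errors came from the fitted weights and moderated dispersion. Alternatives were DESeq2 1.42.0, RLE scaling, 2 other filters, a replicate block, smaller sets of libraries and leaving out each library. The steps were run on simulated data that held guide effects and no editor effects, so recovery of differences between editors was not checked. Members and lists were chosen with earlier results of these data known. The genes named were the 4 members, NRF1, the 5 (VASH1) or 3 genes most alike, the neighbours and, per list, called genes and otherwise up to 3 of smallest p. TUBG1, TUBE1, TUBA8, TUBB3, TTLL13P, CLIP1, DCTN1 and TBCA fall outside this rule and were chosen after their values were seen, and 1 of the genes most like VASH1 is not reported here. Nothing in the labels says that replicates were separate cultures, so p-values cover only library-to-library spread, possibly technical. All pairs of replicates differed by more than sampling noise.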

Additional observations from a re-analysis of the deposited data

Results flagged for a closer look

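The guide effect on VASH2 differed between SaABE and SpABE in a test of the difference itself, which 11.7% of all tested genes also passed. SaABE minus SpABE was 0.30 on the log2 scale (SE 0.077, edgeR adjusted p = 0.0115), with values of 0.11 with SaABE and -0.20 with SpABE. All 3 SpABE NRF1-guide libraries were below all 3 SpABE intergenic-guide libraries, and the SaABE libraries of both guides overlapped. Leaving out each library gave 0.27 to 0.34, with adjusted p from 0.0114 to 0.0354.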

How the results depend on the processing

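The VASH1 guide effect over all 3 editors stayed between -1.81 and -1.76 when each library was left out, and with SpABE it moved to -1.78 without SpABE NRF1-guide replicate 1, which had 8.21 CPM. The TTL value over all 3 editors passed the test under RLE scaling (0.047) and DESeq2 (0.047), and ranged from 0.035 to 0.050 with a library left out. Values near 0 changed sign. The VASH1 SaABE minus SpABE effect was 0.00013 with the CPM filter and 0.0035 with the replicate block, and -0.10 to 0.073 with a library left out. Leaving out a library also gave -0.024 to 0.024 for TTL SaABE minus SpCBE, -0.058 to 0.070 for SVBP SpABE minus SpCBE and -0.090 to 0.031 for SVBP in the SaABE minus SpABE controls. Counts of called genes for differences of guide effects were 277 for SaABE minus SpABE (179 with DESeq2, 420 with every gene of at least 1 count) and 109 for SaABE minus SpCBE (50 and 219 under the same settings). The cause was not tested.

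Pairing of libraries by replicate number was not seen, though deviations from means of 3 libraries cannot exclude it. Correlations of same-numbered deviations over 11400 genes were -0.27, -0.22 and 0.03 for SaABE, 0.04, 0.04 and 0.12 for SpABE and -0.08, -0.15 and 0.10 for SpCBE, and not every library correlated best with its own number. With the replicate block 923 genes were called over all 3 editors, against 976 without it, and the log2 fold changes were -1.79 for VASH1, -0.05 for VASH2, 0.03 for SVBP and 0.04 for TTL. The block changed no call of a member.

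With 281 to 596 estimated counts per library for VASH2, SVBP and NRF1-guide VASH1, small differences at these 3 genes are limited by depth as well as by 3 libraries a group.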
